A study of Mus musculus with 6 samples.

Results

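The genes described here are the amino acid and creatine transporters of the solute carrier families Slc1, Slc3, Slc6, Slc7, Slc36, Slc38 and Slc43, taken by symbol from the table of counts per gene. Of 54232 genes in that table, 61 carried such a symbol, and 36 of them had at least 30 reads over the 6 libraries. The study sequenced messenger RNA, in libraries made with a stranded kit, from the tibialis anterior of C57BL6 mice aged 1 month; this muscle lies at the front of the shin and is built mostly of fast fibres. The groups were 3 libraries of D51 mice (D51 4, D51 5 and D51 6), which lack exon 51 of the dystrophin gene Dmd (genotype label Delta 51), and 3 libraries of WT mice (WT 1, WT 2 and WT 3). The labels call the libraries biological replicates and do not say whether they came from separate litters, so p-values measure the spread between these libraries. Levels below are CPM, the reads of a gene as a share of its library in the usual scale of that unit, with libraries scaled by TMM (trimmed mean of M values), and levels of different genes are compared only per kilobase of exon (RPKM, on the same scaling).

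Amino acids cross the muscle fibre membrane through transporters that differ in substrate and in driving force. Sodium-driven carriers of the Slc6, Slc38 and Slc1 families concentrate creatine, taurine, glutamine and glutamate inside the cell, while exchangers of the Slc7 family trade an amino acid outside for another inside. Several Slc7 proteins are light chains that reach the cell surface only when bound to the heavy chain encoded by Slc3a2. Members of the Slc36 and Slc38 families in the lysosome membrane move amino acids out of the lysosome and take part in the sensing of amino acids by the growth-controlling kinase complex mTORC1. Creatine is made mainly outside muscle, and muscle takes it up through the transporter encoded by Slc6a8 and uses it to buffer ATP. The symbol rule also takes in carriers of other solutes, such as the serotonin transporter gene Slc6a4, the noradrenaline transporter gene Slc6a2 and Slc43a3, whose protein carries purine nucleobases.

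In D51 muscle 7 of these transporter genes rose and 4 fell, while the genes with the highest levels in the family mostly did not pass the test. The largest rises were in Slc38a1, a sodium-driven glutamine and alanine carrier (log2 fold change 2.79), the proline carrier gene Slc6a7 (2.30) and Slc7a5, the light chain known as LAT1 (1.67). The falls were in the glutamine carrier gene Slc38a3 (-0.88), the large neutral amino acid carrier gene Slc43a1 (-0.77), the glycine transporter gene Slc6a9 (-0.71) and Slc38a11 (-1.01). The creatine transporter gene Slc6a8 (-0.15) and the taurine transporter gene Slc6a6 (-0.01) were not called. Of the 36 genes, 32 passed the filter on low counts and were tested (edgeR quasi-likelihood test, adjusted p under 0.05 over all genes tested), and 34.4% of them were called, where 28.0% of all 14335 genes tested were called. The share called higher was 21.9%, beside 16.1% of all genes, and the share called lower was 12.5%, beside 11.9%, so the share of the transporters that changed was near that of the transcriptome. The 3 D51 libraries did not overlap the 3 WT libraries for 14 of the 32 genes, or 43.8%, beside 45.5% of all genes tested. The median log2 fold change of the 32 genes was 0.04, beside -0.01 over all genes tested, and 17 of them had a positive value, as did 48.8% of all genes.

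Some facts of the whole series bear on these values. Totals of assigned reads were 18571038 to 20105817 in D51 and 15681945 to 21020353 in WT. Dmd stood at 46.4 to 51.1 CPM in D51 libraries, against 235 to 266 CPM in WT libraries, and counts per gene do not resolve exon 51 itself. Scaling to library size alone in place of TMM put the middle of all genes at 0.34 on the log2 scale and gave 16 transporter genes higher and 1 lower, so all fold changes below are relative to the bulk of the genes. Library size alone gave 5394 higher and 334 lower of all genes, where TMM gave 2309 and 1701. Leaving out WT 2 gave 3 transporter genes higher and 1 lower, and 1346 higher and 663 lower of all genes. Leaving out D51 4, D51 5 or WT 3 gave 2 transporter genes lower each, and 986, 759 and 1242 lower of all genes. In bulk muscle, fewer cells of a type and less RNA per cell cannot be told apart. Macrophage markers had 10 of 10 genes higher, with a summed level of 856 to 1399 CPM in D51 and 69.8 to 137 CPM in WT. Markers of regenerating muscle had 8 of 8 higher (396 to 478 CPM in D51, 58.9 to 61.8 CPM in WT), and those of fibro-adipogenic progenitors 6 of 7 higher (3227 to 3619 CPM in D51, 1177 to 1957 CPM in WT). Most of the fibro-adipogenic sum was Col3a1 (2338 to 2765 CPM in D51, 641 to 1225 CPM in WT). Markers of proliferating cells had 6 of 6 higher, and their sum was 113, 140 and 28.2 CPM in D51 4, D51 5 and D51 6, against 4.88 to 9.38 CPM in WT. Endothelial and Schwann cell markers had 5 of 8 lower each (sums of 358 to 445 CPM in D51 and 511 to 588 CPM in WT for endothelial genes, 76.2 to 80.8 CPM in D51 and 108 to 118 CPM in WT for Schwann cell genes). Erythroid markers had 3 of 5 lower (59.9 to 98.6 CPM in D51, 105 to 175 CPM in WT). Of 7 listed T cell and granulocyte markers 3 were tested and all 3 were higher, at summed levels of 6.28 to 10.9 CPM in D51 and 0.712 to 2.58 CPM in WT, with Cd3g at 0 counts in WT. Adipocyte markers had 0 of 5 called (163 to 274 CPM in D51, 162 to 264 CPM in WT). Most of that sum was the single gene Fabp4 (158 to 265 CPM in D51, 157 to 258 CPM in WT). Markers of mature fast fibres, which define the labelled tissue, had 0 of 8 called, with sums of 76690 to 107900 CPM in D51 and 119400 to 122300 CPM in WT. The part of these cell types in the results below was not tested.

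**Figure D1:**
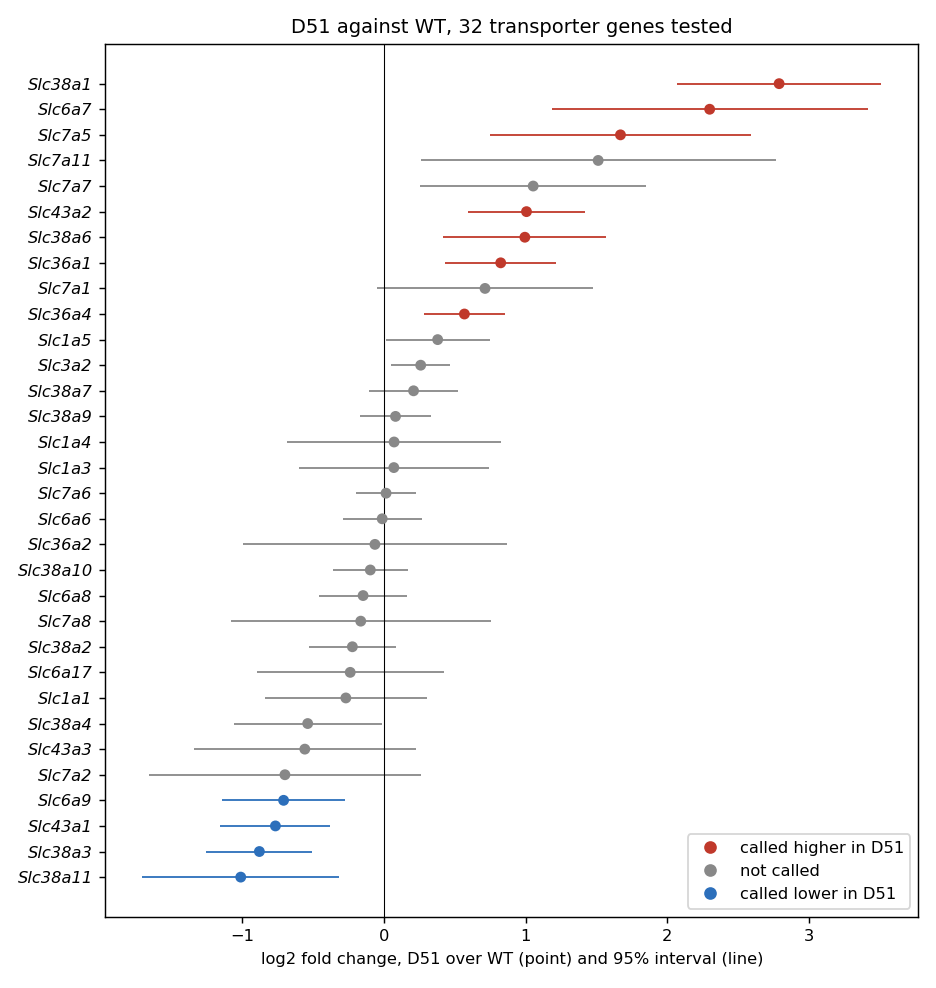
Log2 fold change of the 32 tested transporter genes, D51 over WT, on the horizontal axis, with points for estimates and lines for 95% intervals that are not adjusted for the number of genes, so that some grey lines miss 0. The 7 genes called higher reach from 0.57 to 2.79, the 4 called lower from -1.01 to -0.71, and the rest are grey.

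The transporters of creatine and taurine were among the most abundant of the family and differed little between the groups. Slc6a8 (chromosome X, 73673150 to 73682502 in GRCm38, forward strand) had 128, 96.6 and 119 CPM in D51 4, 5 and 6, against 140, 130 and 111 CPM in WT 1, 2 and 3. The groups overlapped, and the log2 fold change of -0.15 (SE 0.134, 95% interval -0.46 to 0.16, edgeR adjusted p = 0.445) leaves room for a modest change in either direction. Slc6a6 had 134, 126 and 146 CPM in D51 4, 5 and 6, against 158, 132 and 120 CPM in WT 1, 2 and 3. D51 libraries lay inside the WT range, with a log2 fold change of -0.01 (SE 0.121, interval -0.29 to 0.27, adjusted p = 0.946). Both values turned positive under scaling to library size alone, to 0.20 for Slc6a8 and 0.33 for Slc6a6, and that of Slc6a6 was then called (adjusted p = 0.0498). Slc6a6 was also positive without WT 1 (0.10), without D51 5 (0.05) and with no filter (0.001). An antisense gene shares 117 bases of exon with Slc6a6, and no source used here gives the strand setting of the counting.

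Around the creatine transporter, the creatine synthesis genes Gatm and Gamt rose. Of 14 tested genes of creatine, taurine and glutamine metabolism (16 listed), 4 rose and 5 fell, with a median log2 fold change of -0.17. Over all genes tested, 16.1% were called higher and 11.9% lower. Gatm, whose enzyme makes the creatine precursor guanidinoacetate, had 29.6, 21.7 and 25.9 CPM in D51, against 6.70, 5.37 and 4.94 CPM in WT (log2 fold change 2.18, SE 0.164, edgeR adjusted p = 3.04e-04). Gamt, which methylates that precursor to creatine, had 18.7, 12.5 and 15.9 CPM in D51, against 7.75, 4.66 and 7.66 CPM in WT (1.24). Ckb, the brain-type creatine kinase gene, also rose (1.26), as did Gadl1 (1.04), whose enzyme acts in the synthesis of beta-alanine and hypotaurine. Of the genes that fell, the aspartate aminotransferase genes Got1 (-0.63) and Got2 (-0.51) had the smallest adjusted p, and Ckmt2 also fell. Ckmt2, the mitochondrial creatine kinase gene of muscle, was chosen for its link to creatine after its values were seen. It had 1441, 1088 and 872 CPM in D51, against 1690, 2140 and 1924 CPM in WT (-0.76, SE 0.193, edgeR adjusted p = 0.0222).

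Within the Slc38 family, which carries glutamine and other neutral amino acids, 2 of 9 tested genes rose, 2 fell and 5 were not called. Of all genes tested, 16.1% were called higher and 11.9% lower. Slc38a1 (chromosome 15, 96571418 to 96642913, reverse strand) had 13.1, 17.3 and 9.29 CPM in D51 4, 5 and 6, against 2.05, 1.21 and 2.58 CPM in WT 1, 2 and 3. Every D51 library was above every WT library, D51 6 was the lowest of the 3, and the gene rose by 2.79 on the log2 scale (SE 0.314, edgeR adjusted p = 0.00116). Slc38a2 (chromosome 15, 96687392 to 96699730), the neighbouring gene of the same transport system, which cells raise when amino acids are scarce, had 166, 170 and 196 CPM in D51, against 174, 210 and 238 CPM in WT. It was not called (-0.22, interval -0.53 to 0.08), and it was at 0.12 under scaling to library size alone. Per kilobase, Slc38a1 reached 4.04%, 5.22% and 2.43% of the Slc38a2 level in D51 4, 5 and 6, against 0.603%, 0.295% and 0.554% in WT 1, 2 and 3, so it was the lesser gene of the pair in every library.

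Slc38a4, the next gene along on chromosome 15 (96994820 to 97055956), is imprinted and encodes a further carrier of this kind. It had 76.7, 72.0 and 95.5 CPM in D51, against 164, 87.2 and 103 CPM in WT 1, 2 and 3. The groups overlapped because D51 6 exceeded WT 2, and WT 1 was far above the other WT libraries (-0.54, SE 0.227, adjusted p = 0.113). Without WT 1 the value was -0.23, and under scaling to library size alone it was -0.20. With no filter it was called (adjusted p = 0.00827). Slc38a3 (chromosome 9, 107650634 to 107669530, reverse strand) encodes a sodium-driven carrier of glutamine, histidine and asparagine. It had 62.3, 46.9 and 60.5 CPM in D51 4, 5 and 6, against 84.0, 123 and 105 CPM in WT 1, 2 and 3. The groups did not overlap, and the gene fell by 0.88 on the log2 scale (SE 0.163, edgeR adjusted p = 0.007). It was the only member called lower under scaling to library size alone (-0.53).

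The remaining Slc38 genes encode less studied or lysosomal proteins. Slc38a6 had 9.15, 11.3 and 6.59 CPM in D51 4, 5 and 6, against 5.64, 3.40 and 4.58 CPM in WT. The groups did not overlap (log2 fold change 0.99, SE 0.250, adjusted p = 0.0213), and the call ended without D51 4 (0.99), D51 5 (0.81), WT 2 (0.81) or WT 3 (0.99). Slc38a11 was low, at 0.513, 0.875 and 0.727 CPM in D51 and 1.22, 1.75 and 1.29 CPM in WT, and fell by 1.01 on the log2 scale (SE 0.302, adjusted p = 0.0395). Its call ended whichever library was left out (-1.19 to -0.82), under DESeq2 (-1.02) and under scaling to library size alone (-0.66). Slc38a9, the lysosomal arginine sensor of mTORC1 (0.08), Slc38a7, the lysosomal glutamine exporter (0.21), and Slc38a10 (-0.10) were not called.

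**Figure D2:**
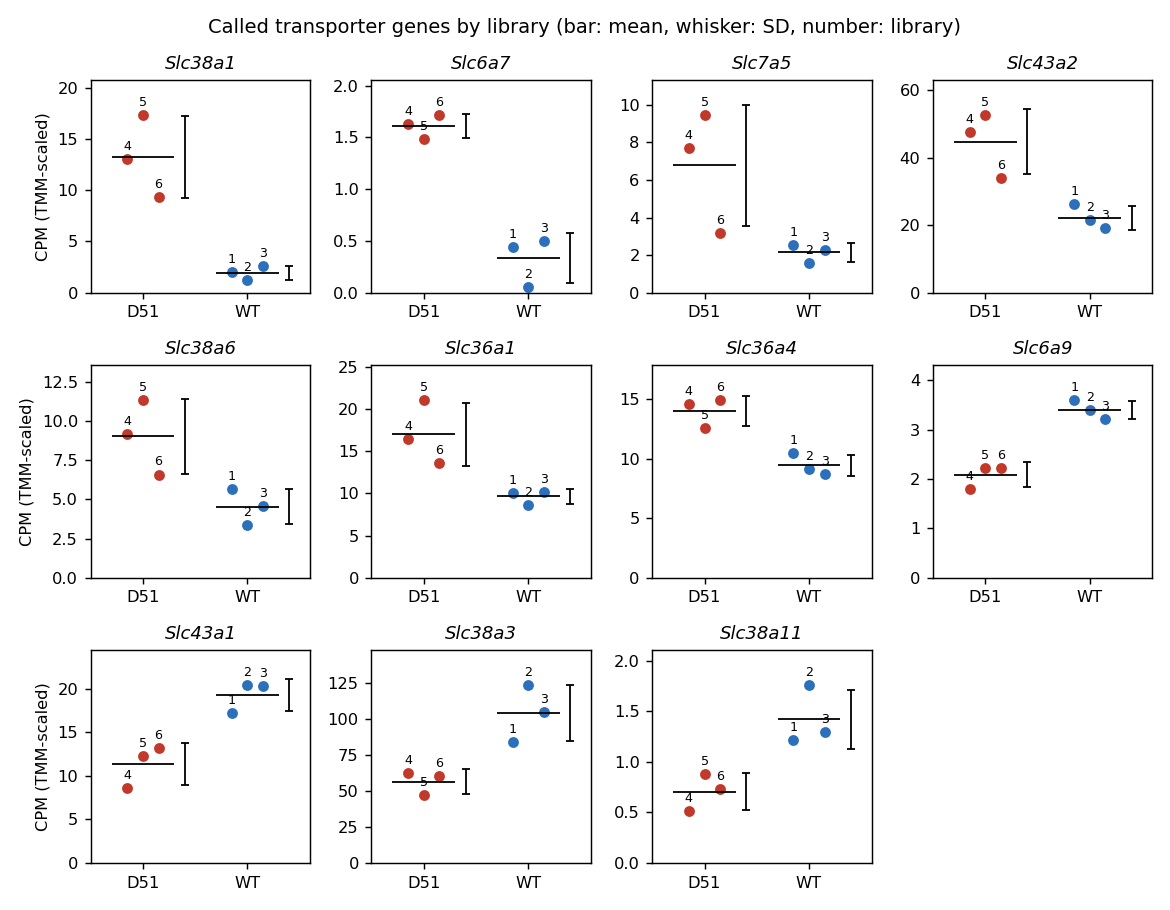
TMM-scaled CPM of the 11 called transporter genes in each library, with D51 left of WT in each panel, points numbered by library, a line at the mean and a whisker for the SD (n = 3). D51 and WT points do not overlap in any panel, and among the genes called higher D51 6 is the lowest D51 point for Slc38a1, Slc7a5, Slc43a2, Slc38a6 and Slc36a1.

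Light chains of the Slc7 family and their heavy chain were measured at similar levels. Slc7a5 (chromosome 8, 121881150 to 121907694, reverse strand) encodes LAT1, which exchanges leucine and other large neutral amino acids and is known to be high in growing and activated cells. It had 7.70, 9.45 and 3.17 CPM in D51 4, 5 and 6, against 2.55, 1.59 and 2.29 CPM in WT 1, 2 and 3. The groups did not overlap, but D51 6 was nearer to WT 1 than to the other D51 libraries (1.67 on the log2 scale, SE 0.399, adjusted p = 0.0177). The call ended without D51 4 (1.57), D51 5 (1.37), WT 2 (1.48) or WT 3 (1.71). Proliferation markers showed the same order of the D51 libraries, with sums of 113, 140 and 28.2 CPM, and their part in this result was not tested. A lowest D51 value in D51 6 was common, found in 67.5% of all genes called higher.

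Slc3a2, the heavy chain known as 4F2hc or CD98, was steady within each group, at 29.7, 32.6 and 28.5 CPM in D51 and 24.7, 25.1 and 26.1 CPM in WT. The groups did not overlap, but the gene was not called (0.26, SE 0.0899, adjusted p = 0.0644). It was called without D51 6 (0.30, adjusted p = 0.0458) and under scaling to library size alone (0.61). Slc7a7, the light chain y+LAT1, which macrophages express, had 3.34, 5.64 and 2.28 CPM in D51 4, 5 and 6, against 1.77, 2.14 and 1.50 CPM in WT. It lay just outside the threshold (1.05, SE 0.347, edgeR adjusted p = 0.0547). It was called without D51 6 (1.30), by DESeq2 (1.06) and by the likelihood-ratio test (1.05). Other settings that called it were no filter (1.07), scaling to library size alone (1.43) and a block for the replicate number (1.02). Its exons share 232 bases with the opposite-strand gene Oxa1l, which is more abundant (40.3 ± 0.507 CPM in D51, 49.9 ± 5.12 CPM in WT).

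The other light chains were not called. Slc7a6, or y+LAT2, was nearly level, at 17.1, 16.7 and 17.2 CPM in D51 and 17.5, 17.1 and 15.8 CPM in WT (0.01, interval -0.20 to 0.23). Slc7a8, or LAT2, had 19.3, 20.8 and 30.3 CPM in D51, against 10.5, 33.6 and 35.0 CPM in WT 1, 2 and 3, so that WT 1 held the lowest value of all. Slc7a11, the cystine and glutamate exchanger xCT, was scarce, with 18, 14 and 20 reads in D51 and 10, 2 and 2 reads in WT (1.51, SE 0.544, adjusted p = 0.0718). It was called without WT 1 (2.62), by the likelihood-ratio test (1.52), with no filter (1.53) and under scaling to library size alone (1.85). Summed over these 5 light chains, the level was 10.8, 12.1 and 11.4 RPKM in D51 and 7.18, 11.5 and 11.5 RPKM in WT, which is 1.28 to 1.42 times the Slc3a2 level in D51 and 1.02 to 1.62 times in WT. Within that sum Slc7a5 made up 19.3%, 21.1% and 7.48% in D51 4, 5 and 6, against 9.57%, 3.71% and 5.36% in WT 1, 2 and 3, and Slc7a8 and Slc7a6 made up most of the rest.

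**Figure D3:**
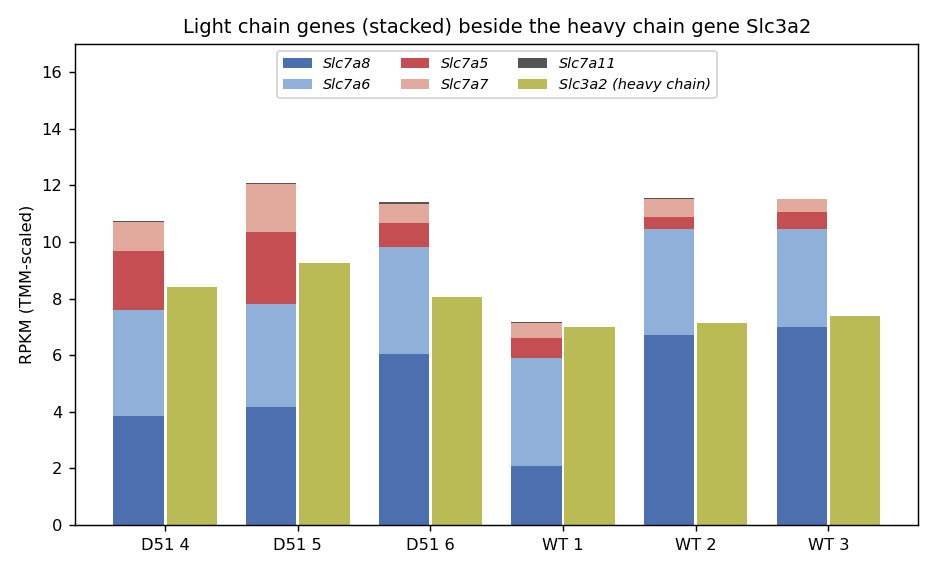
RPKM of 5 light chain genes, stacked, beside that of the heavy chain gene Slc3a2, in each library from D51 4 to WT 3. The Slc7a5 part is 2.08 and 2.55 RPKM in D51 4 and D51 5, 0.854 RPKM in D51 6 and 0.429 to 0.686 RPKM in WT, and the low stack of WT 1 comes from Slc7a8 at 2.09 RPKM.

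The cationic amino acid transporters, which carry arginine and lysine and work without a heavy chain, varied widely. Slc7a2, or CAT2, had 62.3, 111 and 189 CPM in D51 4, 5 and 6, against 112, 206 and 269 CPM in WT 1, 2 and 3. The spread within each group was about as large as the gap between them (-0.70, SE 0.417, adjusted p = 0.245). The value was -0.39 without D51 4, -0.41 without WT 3 and -1.18 without D51 6. The gene was called lower in edgeR with no filter (-0.69, adjusted p = 0.0164). It was also called lower in edgeR with a block for the replicate number (-0.75, adjusted p = 0.00311), although these numbers were not taken as pairs. Slc7a1, or CAT1, had 12.4, 8.31 and 5.97 CPM in D51, against 7.91, 4.11 and 4.23 CPM in WT, and was not called (0.71). It was called without WT 1 (1.09), with no filter (0.73), with the replicate block (0.73) and under scaling to library size alone (1.08). Per kilobase Slc7a1 was at 2.50% to 15.8% of Slc7a2 in D51 and 1.24% to 5.58% in WT. Slc7a2 shares 635 bases of exon with an opposite-strand gene.

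The Slc43 family moved in both directions. Its members Slc43a1, or LAT3, and Slc43a2, or LAT4, let branched-chain and other large neutral amino acids pass down their gradient without a heavy chain. Slc43a2 (chromosome 11, 75531694 to 75577575, forward strand) had 47.5, 52.5 and 34.0 CPM in D51 4, 5 and 6, against 26.1, 21.5 and 19.1 CPM in WT 1, 2 and 3. The groups did not overlap (log2 fold change 1.01, SE 0.180, edgeR adjusted p = 0.00619). Slc43a1 (chromosome 2, 84838850 to 84863594, forward strand) had 8.60, 12.2 and 13.2 CPM in D51, against 17.2, 20.4 and 20.3 CPM in WT, and again the groups did not overlap (-0.77, SE 0.169, adjusted p = 0.013). Its call ended without WT 2 (-0.73) and under scaling to library size alone (-0.42). The mean level of Slc43a2 was 4.45 RPKM in D51 and 2.21 RPKM in WT, and that of Slc43a1 was 1.99 RPKM in D51 and 3.38 RPKM in WT, so Slc43a2 was the higher of these genes in D51 and the lower in WT. An opposite-strand gene, Gm45606, shares 922 of the 10042 exon bases of Slc43a2 and had 1.09 ± 0.321 CPM in D51 and 0.487 ± 0.249 CPM in WT. Slc43a3 had 32.0, 38.6 and 46.6 CPM in D51, against 26.9, 71.2 and 74.6 CPM in WT 1, 2 and 3, and was not called (-0.56). As with Slc7a8, the low value was that of WT 1, and without that library Slc43a3 was called lower (-0.91, adjusted p = 0.00986), as it was with no filter (-0.54).

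Both abundant members of the Slc36 family of amino acid carriers rose. Slc36a1, or PAT1, exports small amino acids from lysosomes. The gene (chromosome 11, 55204350 to 55236330, forward strand) had 16.4, 21.0 and 13.6 CPM in D51 4, 5 and 6, against 10.1, 8.66 and 10.2 CPM in WT 1, 2 and 3, with no overlap (log2 fold change 0.82, SE 0.170, edgeR adjusted p = 0.0103). Slc36a4, or PAT4 (chromosome 9, 15709738 to 15743361, forward strand), had 14.6, 12.6 and 14.9 CPM in D51, against 10.5, 9.15 and 8.74 CPM in WT, with no overlap (0.57, SE 0.124, adjusted p = 0.0128). Both calls ended without WT 2, at 0.74 for Slc36a1 (adjusted p = 0.0503) and 0.54 for Slc36a4 (adjusted p = 0.0597). Slc36a2 had 0.519 to 1.05 CPM in D51 and 0.548 to 1.07 CPM in WT and was not called (-0.06).

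Upstream sequence is shown for the paralogues Slc36a1 and Slc36a4, both called higher, and for Slc7a11. The Slc7a11 promoter is known for its amino acid response elements, the sites through which the factor ATF4 acts when amino acids are scarce. RefSeq (GRCm38.p6) gave promoters for 25 of the 36 genes and for 7 of the 11 called genes. Slc38a1, Slc7a5 and Slc38a3 were among those without a promoter. The 250 bases before each start site were searched on both strands for the response element core TGATGNAAN, for the E-box CACGTG, which is the centre of sites bound by lysosomal gene regulators such as TFEB, and for the E-box CAGCTG of myogenic factors. These letters do not overlap each other. Capitals mark matches to the E-box CACGTG in the Slc36 genes and to the response element core in Slc7a11. The windows are chr11:55204090-55204339 (forward strand), chr9:15709488-15709737 (forward strand) and chr3:50443614-50443863 (reverse strand), each written 5′ to 3′ on the strand of its gene.
Slc36a1: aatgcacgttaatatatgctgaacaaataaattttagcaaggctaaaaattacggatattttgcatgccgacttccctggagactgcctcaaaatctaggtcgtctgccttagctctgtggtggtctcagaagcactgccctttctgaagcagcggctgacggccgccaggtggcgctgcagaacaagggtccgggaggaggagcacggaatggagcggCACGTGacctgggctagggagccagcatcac
Slc36a4: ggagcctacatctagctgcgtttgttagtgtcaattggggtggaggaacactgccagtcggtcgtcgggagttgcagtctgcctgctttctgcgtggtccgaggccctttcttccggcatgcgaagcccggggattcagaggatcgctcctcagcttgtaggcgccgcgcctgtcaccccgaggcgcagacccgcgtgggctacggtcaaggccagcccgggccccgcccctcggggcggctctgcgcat
Slc7a11: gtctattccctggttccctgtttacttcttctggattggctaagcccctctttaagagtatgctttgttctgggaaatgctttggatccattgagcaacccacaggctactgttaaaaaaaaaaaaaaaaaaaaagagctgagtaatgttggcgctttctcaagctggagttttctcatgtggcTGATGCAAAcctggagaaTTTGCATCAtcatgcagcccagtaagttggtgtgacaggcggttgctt
The Slc36a1 window held 1 CACGTG, which starts 31 bases before the start site, and the Slc36a4 window held 0. The Slc7a11 window held 2 facing copies of the response element core, which start 66 and 48 bases before the start site. Among the 39 promoters of the 25 genes, 3 held the response element core (7.69%, in Slc7a11 and Slc7a7), beside 3.44% of all 32851 promoters. Neither gene was called, and the core was in 0 of 5 promoters of genes called higher and 0 of 5 of genes called lower. CACGTG was in 3 (7.69%, in Slc36a1, Slc38a7 and Slc43a1), beside 6.02% of all promoters, and CAGCTG in 6 (15.4%), beside 13.0%. Of the genes with CACGTG, Slc36a1 rose, Slc43a1 fell and Slc38a7 was not called. The motifs and the windows shown were chosen with the results known, and a match describes letters only.

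Carriers of proline and glycine in the Slc6 family moved apart at low levels. Slc6a7 (chromosome 18, 60995380 to 61014222, reverse strand), a proline carrier best known from brain, had 38, 34 and 33 reads in D51, against 8, 1 and 7 reads in WT. In CPM this was 1.63, 1.49 and 1.71 in D51, against 0.443, 0.0548 and 0.501 in WT, with no overlap (log2 fold change 2.30, SE 0.484, edgeR adjusted p = 0.0111). Slc6a9 (chromosome 4, 117834506 to 117875198, forward strand), the glycine transporter GlyT1, had 1.80, 2.23 and 2.23 CPM in D51, against 3.60, 3.40 and 3.22 CPM in WT, with no overlap (-0.71, SE 0.189, adjusted p = 0.0267). Its call ended without D51 4 (-0.61), D51 5 (-0.75), WT 1 (-0.67), WT 2 (-0.72) or WT 3 (-0.75), with no filter (-0.69) and under scaling to library size alone (-0.36). Of its 5141 exon bases, 1986 lie opposite exons of other genes, among them B4galt2 (3.60 ± 0.359 CPM in D51, 2.27 ± 1.01 CPM in WT), so its reads are uncertain where strand was not used in the counting. Slc6a17, a vesicle carrier of neutral amino acids known from neurons, was at 1.40 to 2.23 CPM in D51 and 1.43 to 2.49 CPM in WT and was not called (-0.24).

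In the Slc1 family of glutamate and small neutral amino acid carriers, 0 of 4 tested genes were called, beside 28.0% of all genes tested. Slc1a5, or ASCT2, which exchanges glutamine and other neutral amino acids, was the most abundant, at 20.6, 28.7 and 23.5 CPM in D51 and 15.3, 20.8 and 20.0 CPM in WT (0.38, SE 0.160, adjusted p = 0.113). It was called with no filter (0.39), with the replicate block (0.38) and under scaling to library size alone (0.73). D51 4 overlapped WT 2. Slc1a4, or ASCT1 (0.07), and the glutamate transporter genes Slc1a1 (-0.27) and Slc1a3 (0.07) were not called. Slc1a1 shares 2631 bases of exon with an opposite-strand gene. The glutamate transporter gene Slc1a2 had 10, 6 and 5 reads in D51 and 3, 4 and 3 reads in WT and did not pass the filter.

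A few genes held most of the summed level of the family. By mean RPKM the 6 highest were Slc38a4, Slc6a8, Slc38a2, Slc7a2, Slc6a6 and Slc38a3, and together they held 56.2% to 64.3% of the summed RPKM of all 61 genes in D51 and 65.8% to 71.0% in WT. In D51 the means were 22.0 ± 3.13 for Slc6a8, 20.1 ± 1.86 for Slc38a2, 19.1 ± 2.92 for Slc38a4, 16.0 ± 1.17 for Slc6a6, 13.2 ± 7.01 for Slc7a2 and 10.7 ± 1.59 RPKM for Slc38a3 (SD, n = 3). In WT they were 27.7 ± 9.49 for Slc38a4, 24.4 ± 2.88 for Slc6a8, 23.5 ± 3.66 for Slc38a2, 21.4 ± 8.64 for Slc7a2, 19.7 ± 3.73 for Slc38a3 and 16.1 ± 2.35 RPKM for Slc6a6. Slc38a10, at 11.1 ± 1.44 RPKM, stood above Slc38a3 in D51. Neighbours in each of these orders of 6 differed by less than the larger of their SDs, except Slc38a4 and Slc6a6 in D51. The summed RPKM of all 61 genes was 168 ± 11.8 in D51 and 196 ± 9.06 in WT. RPKM divides by the whole annotated exon length, which reaches 17236 bases for Slc38a1, so genes with long annotated ends can read low.

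**Figure D4:**
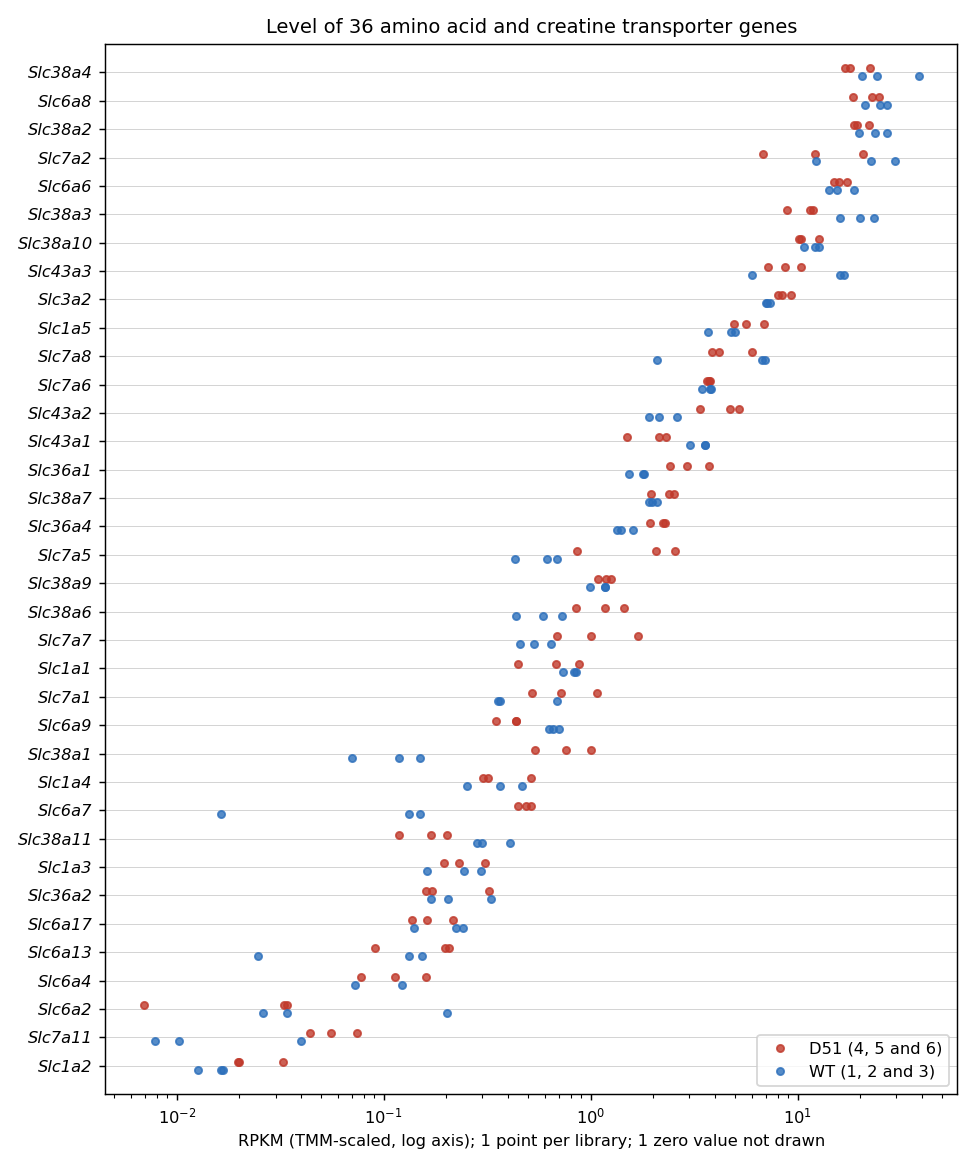
RPKM on a log axis for the 36 transporter genes with at least 30 reads, ordered by mean, with 1 point for each library, D51 above WT in each row and the 0 of Slc6a4 in WT 3 not drawn. Slc38a4, Slc6a8, Slc38a2 and Slc6a6 lie at 14.1 RPKM or higher in every library, with overlapping groups, while the rises of Slc38a1, Slc6a7 and Slc7a5 lie at 2.55 RPKM or lower.

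Among the 7 genes that rose, D51 6 was the lowest D51 library for 5, and this order was found in 67.5% of all genes called higher. The exceptions were Slc36a4 and Slc6a7. The 25 genes with fewer than 30 reads in all had 0 to 28 reads, and 5 of them had 0 in every library, among them the dopamine transporter gene Slc6a3. Among the 36 genes, Slc6a13, Slc6a4 and Slc6a2 had 39 to 50 reads each and, like Slc1a2, were not tested, and 23 of the 39 Slc6a2 reads came from WT 1.

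Genes of the ATF4 response to scarce amino acids, listed together with Atf4 itself and the sensor gene Eif2ak4, were mixed. Of 22 tested, 7 rose and 3 fell, with a median log2 fold change of -0.04. Over all genes tested, 16.1% were called higher and 11.9% lower. Atf4 was not called but lay just outside the threshold (-0.29, SE 0.0972, edgeR adjusted p = 0.0548). It had 116, 126 and 110 CPM in D51, against 136, 157 and 139 CPM in WT, with no overlap. Eif2ak4 (0.02), Ddit3 (-0.38), Trib3 (-0.27) and Chac1 (-0.80) were not called either. Atf3, a stress-induced transcription factor gene, had 11.9, 6.43 and 10.6 CPM in D51, against 2.16, 1.86 and 2.15 CPM in WT (2.23, SE 0.258, edgeR adjusted p = 0.00128). Asns, asparagine synthetase, had 5.35, 4.72 and 2.91 CPM in D51, against 0.941, 1.10 and 1.50 CPM in WT (1.89). Psat1 and Phgdh, which act in serine synthesis, rose by 3.02 and 2.65 on the log2 scale, and Psat1 stood at 12.6, 19.0 and 4.93 CPM in D51 4, 5 and 6, against 1.99, 0.931 and 1.58 CPM in WT. Mthfd2, a mitochondrial folate enzyme gene, rose (1.21), and Cth, whose enzyme makes cysteine, fell (-1.77).

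Of 22 tested genes of amino acid sensing by mTORC1 (24 listed), 2 rose and 3 fell, with a median of -0.12. For this list and those below, the shares over all genes tested were again 16.1% called higher and 11.9% lower. Fnip2, a partner of the sensor protein folliculin, had 23.6, 29.0 and 25.6 CPM in D51, against 11.4, 12.9 and 13.0 CPM in WT (1.07, edgeR adjusted p = 0.00104). Of the Rag GTPase genes, Rragb fell (0.873 ± 0.197 CPM in D51, 3.29 ± 0.532 CPM in WT, -1.89), Rragd fell (-0.50) and Rragc rose (0.35). The kinase gene Mtor fell (-0.39). Of 10 tested transporters from other families (16 listed), 3 rose and 0 fell, with a median of 0.15. These were the lysosomal peptide and histidine carriers Slc15a3 (3.45) and Slc15a4 (0.41) and Mfsd12 (2.32), which carries cysteine into lysosomes, at 7.49 ± 1.03 CPM in D51 and 1.50 ± 0.371 CPM in WT. Of 7 tested genes of proteins that bind or regulate these transporters (9 listed), 4 rose and 0 fell, with a median of 0.37. They were Cd44 (2.42), Arl6ip1 (1.03), Arl6ip5 (0.73) and the beta 1 integrin gene Itgb1 (0.37), whose protein binds the Slc3a2 heavy chain. Macrophage markers rose in the same libraries, as given above, and their part in these values was not tested.

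The authors' deposited table, which lists 13958 genes, holds all 32 tested transporters and has 14 of them at an adjusted p under 0.05, including the 11 genes called here, each with the same sign. The other 3 in the authors' deposited table were Slc38a4 (-0.57), Slc7a7 (1.02) and Slc7a11 (1.49).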

How the data were processed

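Raw read counts, deposited for 54232 genes beside their exon lengths, were the starting point. For the steps before them the submitters' processing notes list featureCounts 1.6.0, FastQC 0.11.4, edgeR 3.30.1 and GRCm38 or mm10, while aligner, annotation release and strand setting are not given. The authors' deposited comparison table gives log2 fold changes and adjusted p-values, per the file headers. The deposited RPKM values were not used, since 182 of 183 values of genes with a count of 0 lie above 0, and RPKM was computed from counts and exon lengths instead.

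Every gene was fitted in edgeR 4.0.16 under R 4.3.3 (quasi-likelihood F-test), with TMM scaling, edgeR's default low-count filter and p-values adjusted by Benjamini-Hochberg over 14335 genes, two-sided, called at an adjusted p under 0.05. The SE is the absolute log2 fold change divided by the square root of F. The transporters and gene lists, and later the promoter motifs and the windows shown, were chosen with earlier results of these data known. Per-library values are given for called members, the 6 with the highest mean RPKM and the 2 uncalled ones nearest the threshold, and for others in brief. From each pathway list the called genes with the smallest adjusted p are named, at most 6, with Ckmt2 added after its values were seen, and a gene of the metabolism list is not reported here.

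Coordinates come from GENCODE M21 (GRCm38), where all 36 members were found by ID, 34 with the deposited exon length, and 9 share exon bases with a gene on the opposite strand. Libraries of a group differed by far more than counting noise (chi-square per degree of freedom 8.08 to 42.9), so each counts as 1 sample. Alternatives were median ratio size factors, library size alone, no filter, a stricter filter, DESeq2 1.42.0, the likelihood-ratio test, limma-voom (limma 3.58.1), a replicate block, and leaving out each library. The fit was also tested on simulated data. With 3 libraries against 3, an exact permutation test can reach 0.1 at best.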

Additional observations from a re-analysis of the deposited data

How the results depend on the processing

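Each of the 32 tested transporters was refitted under 14 alternatives, except that Slc36a2 and Slc7a11 did not pass the stricter filter and have 13. Slc38a1, Slc6a7, Slc43a2 and Slc38a3 kept their direction and their call in all 14. Scaling to library size alone gave 5394 higher and 334 lower genes of all genes (2309 and 1701 with TMM), and 16 higher and 1 lower among the transporters (7 and 4), with a median of 0.39. The higher genes it added were Slc3a2, Slc7a7, Slc7a11, Slc7a1, Slc7a6, Slc1a5, Slc38a7, Slc38a9 and Slc6a6. It turned the sign of Slc38a2 (0.12), Slc6a8 (0.20), Slc6a6 (0.33), Slc38a10 (0.26), Slc36a2 (0.29), Slc7a8 (0.18), Slc6a17 (0.12) and Slc1a1 (0.079). Slc6a6 also turned with no filter (7.52e-04), and Slc7a8 under limma-voom (0.011). No filter gave 11 transporters higher and 7 lower. Fold changes moved little there, while edgeR adjusted p-values moved both ways. That of Slc38a1 went from 0.00116 to 2.41e-13 and that of Slc3a2 from 0.0644 to 0.146. A call gained with no filter thus does not mean a larger change. Leaving out a library gave 1346 to 2662 genes higher and 663 to 2157 lower of all genes, 3 to 9 transporters higher and 1 to 3 lower, and medians of 0.043 to 0.104. It also turned the sign of 7 uncalled genes near 0, whose values ranged from -0.11 to 0.10 for Slc6a6, -0.15 to 0.28 for Slc1a3, -0.22 to 0.30 for Slc1a4, -0.46 to 0.23 for Slc36a2, -0.001122 to 0.13 for Slc38a9, -0.034 to 0.038 for Slc7a6 and -0.56 to 0.081 for Slc7a8. Fewer libraries give the test less power by construction, and the cause of the other shifts was not tested.

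The description labels number the libraries 1 to 3 in both groups. Deviations of same-numbered libraries correlated across genes at 0.40 (D51 4 with WT 1), 0.02 (D51 5 with WT 2) and 0.08 (D51 6 with WT 3). Differently numbered libraries correlated at -0.27 to 0.17. D51 5 correlated best with WT 3 and D51 6 with WT 2, so the numbers were not taken to pair the libraries. What D51 4 and WT 1 share was not tested. A replicate block gave 10 transporters higher and 5 lower, 2508 and 1960 of all genes, and added the calls of Slc7a7 (1.02), Slc1a5 (0.38), Slc7a1 (0.73) and Slc7a2 (-0.75). Genes under about 1 CPM, such as Slc7a11, rest on few reads, and a change there was not detectable at this depth unless large.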
